A study of Mus musculus with 50 samples.

Results

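The renin-angiotensin-aldosterone system was followed through 8 genes, Ren1, Agt, Ace, Agtr1a, Agtr1b, Nr3c2, Hsd11b2 and Atp6ap2, each taken by its symbol from the 24984 genes of the count files. The libraries came from C57BL/6 mice, female where the study describes the animals. For RNA-seq, kidneys and livers of untreated mice were taken at 2.5 months (young) or 23 to 25 months (old), with 4 libraries per tissue and age. At 20 to 21 months a second set of mice had been given either the solvent DMSO or 3C, a treatment that the labels name without describing, again with 4 libraries per tissue and treatment. Mouse skin fibroblasts labelled P9, a term that the titles do not explain, were given DMSO or 3C too, with 3 libraries per treatment. ATAC-seq, which marks open chromatin, covered the kidney and liver of untreated young and old mice with 3 libraries each. In all there were 38 RNA libraries in 10 groups and 12 ATAC libraries in 4 groups. The labels do not say whether the libraries of a group came from separate animals or cultures, so p-values measure the spread between these libraries alone.

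In this system renin, a protease released by juxtaglomerular cells of the kidney, cuts angiotensinogen from the liver into angiotensin I, and angiotensin-converting enzyme on endothelium and proximal tubule turns that into angiotensin II. Angiotensin II acts through AT1 receptors to constrict vessels, reabsorb sodium and release aldosterone from the adrenal cortex. Aldosterone acts on the mineralocorticoid receptor of the distal nephron, where an enzyme that inactivates glucocorticoids keeps these from occupying the receptor.

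The RNA libraries held 14.2 to 43.7 M (mega) reads assigned to genes. Levels are given as CPM, the counts of a gene per M of these reads, and per kb of exon length where genes are compared with each other. The summed level of 10 hepatocyte markers was 146191 to 202426 CPM in young and old liver and 230 to 412 CPM in young and old kidney, except for old kidney replicate 2, which had 4886 CPM. This library held albumin (Alb) at 71608 counts, and results that rest on old kidney were also computed without it. The adrenal cortex markers Cyp11b1 and Cyp11b2 had 0 counts in every kidney library. In these bulk libraries fewer cells of a type and less RNA per cell cannot be told apart.

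Ren1, which encodes renin, had 0 counts in all 38 RNA libraries, among them the 16 kidney libraries with 327 M assigned reads. A count of 0 allows up to 3 counts, or 0.00916 CPM over the kidney libraries together, an upper limit for counting error only. Ren2, a paralog carried by other mouse strains, was listed at 0 in all 38 libraries too. In contrast, other genes of renin-producing cells were counted over the same 16 kidneys, with 2814 counts for the gap junction gene Gja5, 765 for the juxtaglomerular marker Akr1b7 and 1743 for the beta-1 adrenergic receptor Adrb1. The reference mRNAs of Ren1 and Ren2 were identical at 1483 of 1531 aligned bases (96.9%), with a longest identical run of 174 bases. Reads that overlapped more than 1 gene, 1.72 to 2.81% of those tallied in or outside genes, entered no gene's count. In the young and old libraries reads aligned to several places did not either. The DMSO and 3C libraries list 0 such reads, and how these were handled is not known. Whether reads of Ren1 were among the reads left out was not tested, so the 0 of Ren1 is an uncertain value. In all, 3990 of the 24984 genes had 0 counts in every library, and 4818 had 0 counts in every kidney.

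The chromatin libraries were also searched for peaks near Ren1, though bulk libraries cannot show whether a small share of cells has one. Ren1 lies on chromosome 1 at 133350510 to 133360325 (mm10, plus strand, GENCODE vM21). No peak lay within 1 kb of its start in any of the 12 ATAC libraries, kidney or liver. The nearest peak was upstream in each of them, at a distance of 1927 to 2654 bp, with a fold enrichment over local background of 2.08 to 6.01. Renin transcription is known to depend on an enhancer a few kilobases upstream of the gene, and whether these peaks cover it was not tested. The stretch shared by the peaks of all 6 kidney libraries was 158 bases long and lay 2407 to 2564 bases before the start, and a peak covered all of it in 4 of 6 liver libraries. It is shown because every kidney library had a peak there, 5′ to 3′ on the plus strand of RefSeq GRCm38.p6 (chr1:133347946-133348103), with its single match to the searched motifs, a CCAAT box, in capitals.
Ren1 upstream peak core: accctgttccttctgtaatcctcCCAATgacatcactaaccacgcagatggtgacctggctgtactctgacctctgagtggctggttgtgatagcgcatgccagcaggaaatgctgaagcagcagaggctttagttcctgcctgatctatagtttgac

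Upstream sequences of 2 further genes are shown because their transcripts changed in a comparison or because their start sites carried peaks. Windows of up to 250 bases before a start were taken from the RefSeq promoter table (GRCm38.p6), which held 6 of the 8 genes but neither Agtr1a nor Hsd11b2. The motifs sought were the promoter box TATAAA, the promoter box CCAAT, the GC box GGGCGG, the core of a cyclic AMP element written as TGACG, and the AP-1 element written as TGANTCA. Both strands were searched, and matches are in capitals. Agt reads on the minus strand at chr8:124569707-124569956. Ace has a start for the longer, somatic enzyme (chr11:105967698-105967944) and an internal start (chr11:105974939-105975188), both on the plus strand.
Agt: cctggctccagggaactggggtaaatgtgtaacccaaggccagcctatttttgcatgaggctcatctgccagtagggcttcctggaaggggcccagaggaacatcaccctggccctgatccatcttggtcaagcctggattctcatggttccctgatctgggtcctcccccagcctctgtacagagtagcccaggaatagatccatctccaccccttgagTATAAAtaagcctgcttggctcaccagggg
Ace first start: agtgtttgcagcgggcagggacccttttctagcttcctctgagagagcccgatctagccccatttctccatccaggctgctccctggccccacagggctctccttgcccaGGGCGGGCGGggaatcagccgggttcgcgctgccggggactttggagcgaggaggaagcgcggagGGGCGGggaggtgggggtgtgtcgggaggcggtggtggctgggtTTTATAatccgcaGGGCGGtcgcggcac
Ace internal start: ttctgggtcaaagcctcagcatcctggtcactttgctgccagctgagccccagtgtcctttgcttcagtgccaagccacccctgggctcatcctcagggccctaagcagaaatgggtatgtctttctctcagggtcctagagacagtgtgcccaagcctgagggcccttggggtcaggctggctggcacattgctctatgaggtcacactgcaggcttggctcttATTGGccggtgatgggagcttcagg

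The Agt window held TATAAA 30 bases before the start, and the Ace first start held it 31 bases before the start on the reverse strand. The Ace first start, with a GC content of 67.2% against 55.6% for Agt, held 4 matches to GGGCGG, a pair of which overlap. The Ace internal start held neither, but a CCAAT box on the reverse strand 25 bases before the start. Among 32851 promoter windows of 250 bases, TATAAA was found in 12.4%, CCAAT in 33.8%, GGGCGG in 32.7%, TGACG in 17.8% and TGANTCA in 6.75%. These matches are letters in a window and say nothing of a factor's binding.

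To compare the organs, kidney was set against liver within the young mice and again within the DMSO mice. Agt was a liver gene, Ace and Hsd11b2 were kidney genes, Agtr1a was moderately higher in liver, and Nr3c2 and Atp6ap2 were moderately higher in kidney. Agt, the angiotensinogen gene, stood at 858, 867, 884 and 1018 CPM in young liver and at 85.2, 81.2, 99.0 and 132 CPM in young kidney. Liver exceeded kidney in every library, and the edgeR quasi-likelihood fit gave a kidney minus liver log2 fold change of -4.28 (SE 0.23, adjusted p = 1.02e-08), with -3.88 (SE 0.15) in the DMSO mice. Scaled by library totals alone, the log2 fold changes were -3.19 and -2.88.

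Ace, the converting enzyme, was at 247, 273, 237 and 287 CPM in young kidney and at 0.589, 0.351, 1.11 and 0.18 CPM in young liver. Its kidney minus liver log2 fold change was 7.80 (SE 0.34, adjusted p = 1.36e-09, edgeR) in young mice and 5.68 (SE 0.22) in DMSO mice, or 223-fold and 51.3-fold higher in kidney. Under library totals the log2 fold changes were 8.87 and 6.66. Exons of the antisense gene Gm11651 overlap 5.58% of the exon length of Ace, and in these unstranded counts reads from that overlap entered neither gene.

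Hsd11b2, the dehydrogenase that inactivates glucocorticoids in the distal nephron, had 1 count over the 4 young livers and 5 over the 4 DMSO livers. Young kidneys had 194, 216, 164 and 206 CPM and DMSO kidneys 279, 275, 288 and 308 CPM. With edgeR's TMM factors, which scale libraries by the bulk of their genes and were added to this ratio after seeing the data, the ratio of kidney to liver was 8112 in young mice, with a 95% counting interval of 1456 to 320393, and 2130 in DMSO mice (913 to 6558). Without that scaling the ratios of CPM were 17121 and 4235. Of the 5 counts in DMSO liver 4 were in replicate 3, and the fitted log2 fold change of edgeR, 10.96, was 12.65 without it. Old livers had 0 counts, so old kidney was at least 2336-fold higher after scaling, taking 3 counts over the group as the limit. No liver library came near the lowest kidney library.

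Agtr1a, the main AT1 receptor gene of rodents, was at 80.3, 76.5, 64.8 and 48.3 CPM in young liver and 43.8, 47.3, 41.5 and 38.6 CPM in young kidney. No library of one organ overlapped the other. After scaling between organs its kidney minus liver log2 fold change was -1.73 (SE 0.13, adjusted p = 2.19e-07, edgeR) in young mice and -1.63 (SE 0.10) in DMSO mice. Under library totals it was -0.65 and -0.63, still with an adjusted p under 0.05 but below a 2-fold change.

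Nr3c2, the mineralocorticoid receptor gene, was at 27.6, 26.4, 19.4 and 15.9 CPM in young kidney and 9.79, 4.96, 5.17 and 5.95 CPM in young liver. Its log2 fold change was 0.70 (SE 0.24, adjusted p = 0.0245, edgeR) in young mice and 0.69 (SE 0.13, adjusted p = 0.000373) in DMSO mice. Without young kidney replicate 1 or 2 or young liver replicate 2 or 3 it did not pass in young mice, and its log2 fold change ran from 0.55 to 0.92 when each library was left out in turn.

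Atp6ap2, which encodes the prorenin receptor, also a V-ATPase accessory subunit, was at 161, 157, 147 and 120 CPM in young kidney and 33.8, 34.9, 36.8 and 29.4 CPM in young liver. The kidney level was 2.04-fold higher in young mice (log2 fold change 1.03, SE 0.12, adjusted p = 1.17e-05, edgeR) and 2.12-fold in DMSO mice. Under library totals the log2 fold changes were 2.12 and 2.07. With young liver replicate 1 or 2, or DMSO liver replicate 3, left out, the fold was just under 2, so Atp6ap2 was not called. The share of reads outside genes was 13.4 to 14.6% in young kidney against 6.84 to 9.31% in young liver, and 17.0 to 18.8% against 10.6 to 13.7% in DMSO mice. It did not overlap between organs, so it and the organ cannot be told apart. With this share as a covariate Nr3c2 passed in neither young nor DMSO mice, at log2 fold changes of 1.30 and 0.30 (adjusted p = 0.445 and 0.620, edgeR). Atp6ap2 did not pass either, at 0.99 and 0.57 (adjusted p = 0.206 in both, edgeR). Ace and Hsd11b2 in young mice, and Hsd11b2 in DMSO mice, passed the filter on low counts through kidney alone, and so had to differ. Of the genes that reached the count limit in both organs, 4 of 4 passed the adjusted p of 0.05 in young mice, against 65.4% of all genes, and 5 of 5 in DMSO mice, against 71.9%. With a fold above 2 or below 0.5 added, which is what called means from here on, 3 of 4 and 4 of 5 were called, against 42.6 and 42.3% of all genes. These shares are over all genes tested, among them genes that passed the filter through 1 organ alone, so the sets are unlike. Scaling by library totals moved the median of all genes from 0.08 to 1.16 in young mice and from 0.07 to 1.06 in DMSO mice, and turned the direction of none of the 6. Under totals Agtr1a was no longer called and Nr3c2 was, at 1.79 and 1.69, in both series.

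**Figure D1:**
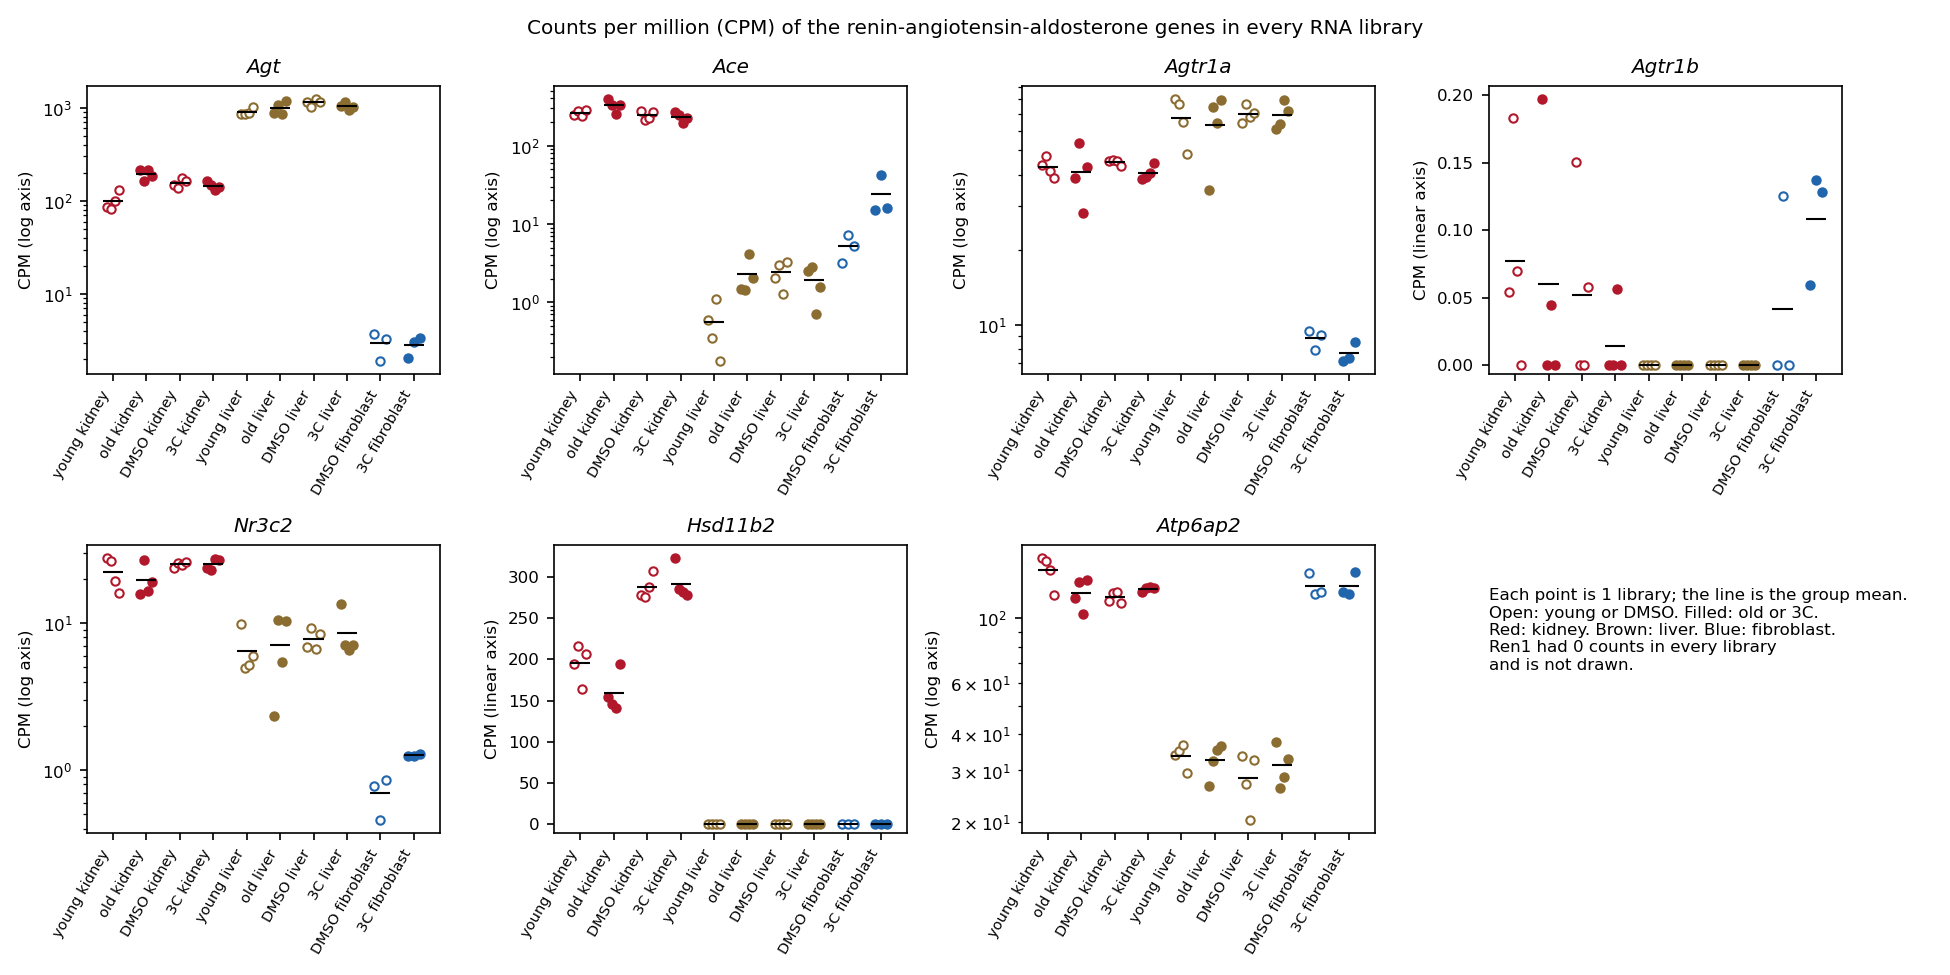
CPM of 7 of the 8 genes in each of the 38 RNA libraries by group, on log axes except for Agtr1b and Hsd11b2, with 1 point per library and a line at the group mean. Kidney points lie far above liver for Ace and Hsd11b2 and below liver for Agt, and Ace in 3C fibroblasts lies above DMSO fibroblasts.

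Agtr1b, the minor AT1 receptor gene, had 0 to 4 counts per library and 0 in all 16 livers, and passed no filter on low counts. Agtr1a therefore held 99.83% of the joint counts of both receptor genes in young and in old kidney, a difference of 0.0033 percentage points (exact permutation test, two-sided, p = 0.914, adjusted p = 1 over 4 comparisons). The share was 99.88% in DMSO and 99.97% in 3C kidney (exact p = 0.714), and 100% in every liver group. The coding sequences of the pair were identical at 978 of 1075 aligned bases (91.0%), with a longest identical run of 66 bases. Counting error is the only error that these shares cover.

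On the scale of CPM per kb, young kidney expressed Hsd11b2 at 106, Atp6ap2 at 55.9, Agt at 52.6, Ace at 49.4, Agtr1a at 15.4 and Nr3c2 at 3.45. In young liver Agt was at 480 CPM per kb and Agtr1a at 24.2. Skin fibroblasts held Atp6ap2 at 129 ± 12.2 CPM (SD, n = 3) with DMSO, within the range of kidney, whereas Agt was at 2.99 ± 0.956 CPM and Nr3c2 at 0.698 ± 0.210 CPM. The AT1 gene Agtr1a was at 8.82 CPM in the same cells, below Agtr2, the gene of the AT2 receptor, with 49.2, 61.4 and 58.1 CPM. That comparison of the receptor genes is of CPM without length.

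Ordered by group mean, Agt formed 3 separate blocks, with 4 liver groups from 1144 CPM in DMSO liver to 907 CPM in young liver, 4 kidney groups from 194 to 99.4 CPM, and fibroblasts. Neighbouring groups within a block overlapped in range. Ace was ordered from old kidney (324 CPM) through the other kidneys to 3C fibroblasts (24.2 CPM), DMSO fibroblasts (5.19 CPM) and liver, and its 3C fibroblasts overlapped neither neighbour. Hsd11b2 had the DMSO and 3C kidneys (287 and 292 CPM) above young and old kidney (195 and 159 CPM) with no overlap between the pairs. The treated mice and the untreated mice belong to series of libraries that were tallied differently, so their levels are given side by side and were not tested against each other.

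To ask which of these genes differ with age, old kidney was compared with young kidney. Agt rose, and the other 5 genes tested did not pass. Agt was at 85.2, 81.2, 99.0 and 132 CPM in young kidney and at 214, 163, 216 and 184 CPM in old kidney. All old kidneys lay above all young kidneys. The fold was 1.91, with a log2 fold change of 0.94 (SE 0.20, 95% interval 0.48 to 1.39, adjusted p = 0.0168, edgeR). Since the fold stayed under 2, Agt was not called, although leaving out replicate 2 of the old or replicate 4 of the young kidneys made it a called gene.

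Without young kidney replicate 1, 2 or 3 the adjusted p of Agt was 0.0525, 0.0593 or 0.0581, at log2 fold changes of 0.85, 0.83 and 0.92, and without replicate 4 the log2 fold change was 1.14 with an adjusted p of 0.00642. Leaving out old kidney replicate 2, the library with hepatocyte transcripts, gave a log2 fold change of 1.04 and an adjusted p of 0.0085 (edgeR). Its 163 CPM was the lowest Agt level of the old kidneys, whose other libraries had hepatocyte marker sums of 342 to 412 CPM against 230 to 278 CPM in young kidneys.

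Hsd11b2 was at 154, 146, 141 and 194 CPM in old kidney, and its log2 fold change was -0.33 (95% interval -0.62 to -0.04, adjusted p = 0.124). Atp6ap2 was at 118, 133, 103 and 136 CPM, a log2 fold change of -0.29 (-0.52 to -0.06, adjusted p = 0.0997). Old and young kidneys overlapped for both genes. Ace in old kidney, at 391, 326, 252 and 326 CPM, overlapped young kidney too and had a log2 fold change of 0.28 (-0.05 to 0.60, adjusted p = 0.229). Nr3c2 had one of -0.23 (-0.66 to 0.21) and Agtr1a one of -0.11 (-0.44 to 0.22). In all, 1 of 6 passed, against 11.5% of all genes tested, and 0 of 6 were called, against 6.08%. DESeq2 passed 2 of 6, adding Atp6ap2 at a log2 fold change of -0.31 (adjusted p = 0.0254).

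In old liver Agt stood at 880, 1075, 857 and 1195 CPM and overlapped young liver, with a log2 fold change of 0.06 (95% interval -0.39 to 0.52, adjusted p = 0.958, edgeR). Ace, which passed the filter on low counts through old liver alone, was at 1.49, 1.42, 4.16 and 2.06 CPM in old liver, each above the highest young liver at 1.11 CPM. The fold was 3.91, with a log2 fold change of 1.97 (SE 0.56, 0.75 to 3.19), but the adjusted p of 0.0997 did not pass. Of 5 genes tested in liver 0 passed by edgeR, against 2.46% of all genes, and 0 were called, against 2.13%; DESeq2 called 595 genes in all and 1 of the 5, Ace, which supports nothing since Ace entered through old liver alone. At an unadjusted p under 0.05 edgeR had 1846 genes in the liver comparison, Ace among them.

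The age effect in liver minus that in kidney was tested as an interaction. For Ace it was 1.72 (95% interval 0.64 to 2.81, adjusted p = 0.107), and for Agt -0.84 (-1.53 to -0.16, adjusted p = 0.229, edgeR). None of 5 genes tested passed, against 1.72% of all genes. Hsd11b2 was left out here because liver had 0 or 1 count. Without young liver replicate 3, the highest of the young livers for Ace, the interaction of Ace was 2.31 with an adjusted p of 0.0383. A difference between the organs in how these genes move with age was therefore shown neither for Agt nor for Ace, whose interaction passed only with that library left out.

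**Figure D2:**
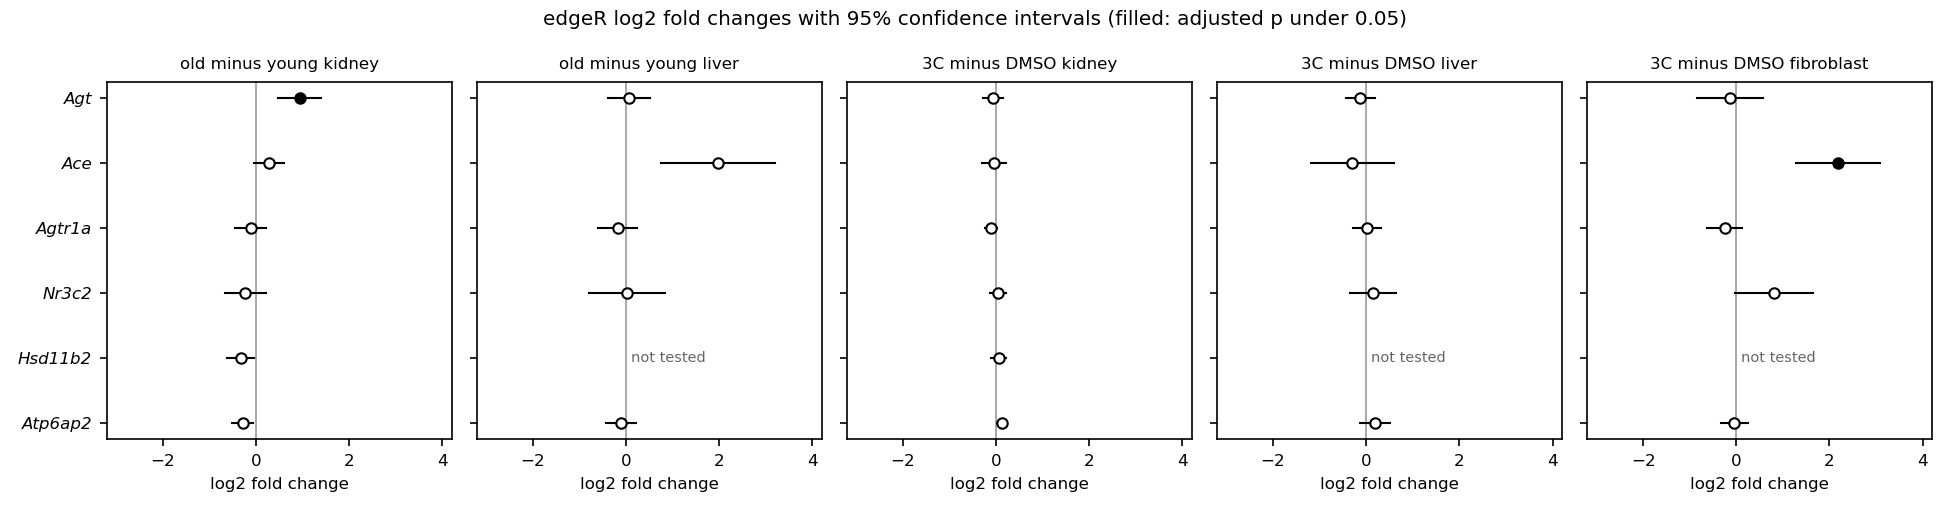
Log2 fold changes from edgeR with 95% intervals (x axis) for 6 genes (rows) in the 5 comparisons within a tissue (panels), where filled points passed an adjusted p of 0.05. Agt in old kidney and Ace in 3C fibroblasts are the filled points, and the intervals in 3C kidney are the narrowest.

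The rest of the pathway in old kidney was counted over lists of genes. Those named here by a passed test alone, without a fold above 2, were named after their values were seen. Of all genes tested, 8.15% passed higher and 3.36% passed lower, the background for each count. Of 12 other angiotensin enzymes and receptors tested 2 fell and none rose, with a list median log2 fold change of -0.21 against 0.02 over all genes. Among those that fell, Enpep, aminopeptidase A, which trims angiotensin II, went from 197, 197, 191 and 147 CPM to 97.5, 157, 105 and 136 CPM, a log2 fold change of -0.60 (SE 0.14, adjusted p = 0.0194, edgeR), with overlap. Without old kidney replicate 2 it was -0.70 with an adjusted p of 0.00726.

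Enpep sits on the brush border of the proximal tubule, and markers of that tubule moved beside it. The sum of 6 proximal tubule markers was 8288 to 11792 CPM in young kidney and 5724 to 7515 CPM in old kidney, and 3 of the 6 fell, or 5 of the 6 without old kidney replicate 2. The 7 macrophage markers summed to 148 to 168 CPM in young and 692 to 1647 CPM in old kidney, with 7 of 7 higher, and 5 of 5 B and plasma cell markers tested were higher. No defining marker of these 3 cell types was at 0. Their part in the levels of Agt or Enpep was not tested.

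Downstream of the receptor, 3 of 22 mineralocorticoid targets and sodium transport genes rose and 1 fell in old kidney, 4 of 22 in all beside 11.5% of all genes. Those that rose included Lcn2 (lipocalin 2) and Edn1 (endothelin 1), both called, with log2 fold changes of 4.79 and 1.40 (adjusted p = 0.00112 and 0.026, edgeR). Each is also induced by injury or inflammation. Scnn1g, the gamma subunit of the epithelial sodium channel, went from 55.3 ± 7.56 to 35.6 ± 10.3 CPM (SD, n = 4), a log2 fold change of -0.68 (adjusted p = 0.0262), while the list median was -0.05. Of 8 steroid genes 1 rose, Hsd11b1, which regenerates active glucocorticoid and so works against Hsd11b2. It was at 79.9, 62.5, 60.5 and 82.4 CPM in young and 98.2, 139, 107 and 158 CPM in old kidney, with no overlap, and its log2 fold change was 0.77 (SE 0.16, adjusted p = 0.0137).

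Among 8 natriuretic peptide and kinin genes Corin, the protease that activates atrial natriuretic peptide, was called lower, from 11.7 ± 3.52 to 3.99 ± 0.359 CPM (log2 fold change -1.58, adjusted p = 0.00336, edgeR). Of 21 renin cell genes and regulators 1 rose, the gap junction gene Gja4 at a log2 fold change of 0.70 (adjusted p = 0.0399), and the list median was -0.23. The V-ATPase, the proton pump to which Atp6ap2 belongs, had 5 of 23 subunits lower, beside 3.36% of all genes, and 1 higher, beside 8.15%. The 5 were Atp6v1a, Atp6v0a4, Atp6v1b2, Atp6v0d2 and Atp6v1b1, at log2 fold changes of -0.66 to -0.36, and the macrophage and osteoclast subunit Tcirg1 was at 0.86. The sum of 4 intercalated cell markers, a list that holds Atp6v1b1, was 335 to 411 CPM in young and 275 to 299 CPM in old kidney, with 2 of 4 lower, and its part was not tested.

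Of 11 regulators of angiotensinogen tested, 3 rose with Agt in old kidney and 1 fell. Cebpd, an acute-phase factor, had a log2 fold change of 0.85 (adjusted p = 0.0323, edgeR), Usf1 one of 0.48 (adjusted p = 0.0344) and Rela, a subunit of NF-kB, one of 0.42 (adjusted p = 0.0373). Cebpa, a factor of differentiated hepatocytes and tubule, fell by 0.63 on the log2 scale (adjusted p = 0.0103). The list median was 0.32. Without old kidney replicate 2, an alternative chosen after seeing the data, 3440 genes passed in place of 1669 (11.5% of all genes higher and 12.2% lower), and the counts of rises and falls became 0 and 4 of 13 for the angiotensin enzymes, 4 and 4 of 22 for mineralocorticoid targets, 1 and 4 of 21 for renin cell genes, 1 and 6 of 23 for the V-ATPase and 3 and 2 of 11 for the Agt regulators. Corin, Lcn2 and Cebpa kept an adjusted p under 0.05 in every alternative run, and the other genes of these lists named for old kidney lost it with 2 to 6 of the 8 libraries left out in turn.

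**Figure D3:**
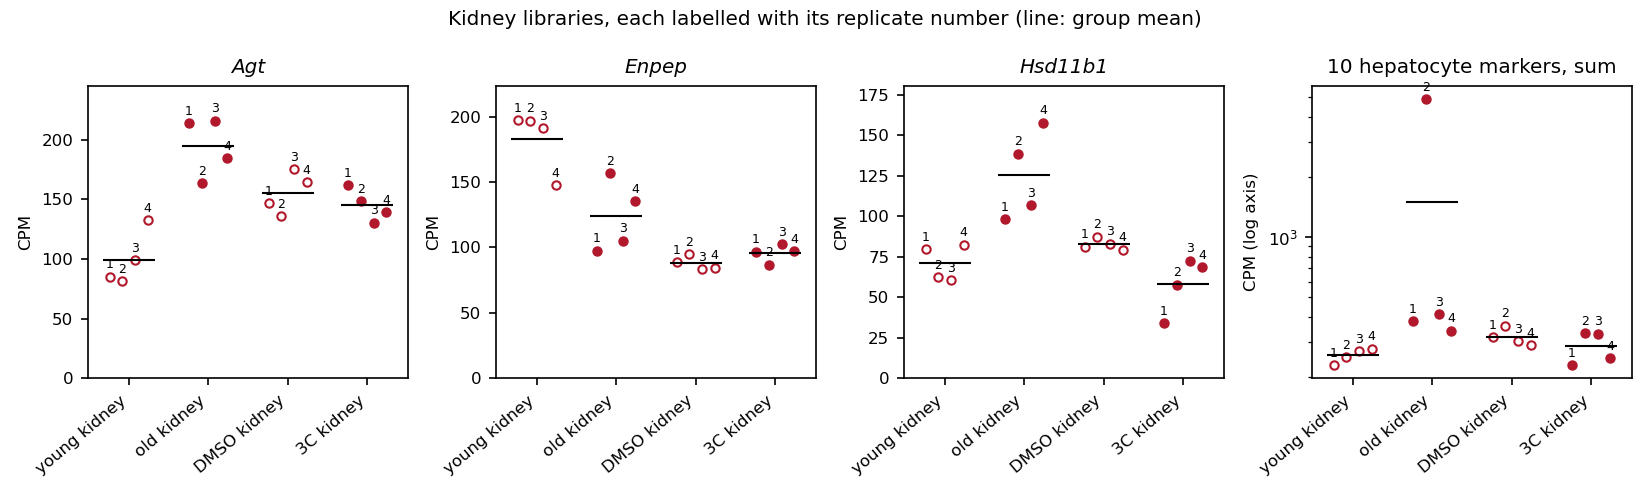
CPM of Agt, Enpep and Hsd11b1 and the summed CPM of 10 hepatocyte markers (log axis) in the 16 kidney libraries, each point labelled with its replicate number and the line at the group mean. Old kidney lies above young kidney for Agt and Hsd11b1, and old kidney replicate 2 stands apart in the hepatocyte sum at 4886 CPM.

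In old liver the same lists gave few genes, beside 2.46% of all genes that passed. No angiotensin enzyme or receptor of 12 and no V-ATPase subunit of 18 passed, and 2 of 12 Agt regulators rose, Stat3 at a log2 fold change of 1.03 (adjusted p = 0.0447, edgeR) and Esr1 at 0.86 (adjusted p = 0.0351). Ptger4, a prostaglandin receptor of renin cells, was at 2.47 (adjusted p = 0.0477), and Lcn2 at 6.37 (adjusted p = 0.0222). With each of the 8 libraries left out in turn, Ptger4, Stat3 and Esr1 each lost the threshold 7 times and Lcn2 5 times, at adjusted p up to 0.159, 0.149, 0.111 and 0.081. Macrophage markers summed to 431 to 595 CPM in young and 778 to 1483 CPM in old liver, with 3 of 7 higher, and their part was not tested.

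Next, 3C was compared with DMSO in the organs of mice aged 20 to 21 months. In kidney Agt was at 147, 136, 175 and 164 CPM with DMSO and 162, 148, 130 and 139 CPM with 3C. The groups overlapped, and the log2 fold change was -0.07 (95% interval -0.28 to 0.14). Ace was at -0.04 (-0.30 to 0.21), Agtr1a at -0.11 (-0.25 to 0.03), Nr3c2 at 0.04 (-0.13 to 0.22) and Hsd11b2 at 0.06 (-0.10 to 0.21) on the same scale. Atp6ap2 had the lowest adjusted p, 0.356 (edgeR), at a log2 fold change of 0.12 (0.02 to 0.23), with 115, 123, 124 and 113 CPM against 123, 127, 128 and 127 CPM. None of 6 genes passed and none was called, as for 0% and 0% of the 14974 genes tested, although 1786 had an unadjusted p under 0.05 and DESeq2 passed 214 and called 8. The widest of these intervals was that of Ace.

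In liver Agt was at 1153, 1031, 1239 and 1153 CPM with DMSO and 1036, 1140, 937 and 1023 CPM with 3C, with overlap and a log2 fold change of -0.13 (-0.43 to 0.18). Ace was at 2.07, 3.02, 1.27 and 3.28 CPM against 2.54, 2.85, 0.704 and 1.57 CPM, a log2 fold change of -0.30 with a wider interval of -1.18 to 0.59. Agtr1a was at 0.02, Nr3c2 at 0.15 and Atp6ap2 at 0.18. None of 5 passed or was called, as for 0% and 0% of 13042 genes, where 436 had an unadjusted p under 0.05 and DESeq2 passed 6. The 3C effect in liver minus that in kidney had an adjusted p of 1 for all 5 genes, and 0% of 15526 genes passed, with 554 at an unadjusted p under 0.05. No gene of the 7 pathway lists passed in either organ.

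In skin fibroblasts 3C went with more Ace. The DMSO libraries had 3.15, 7.14 and 5.27 CPM (73, 171 and 86 counts) and the 3C libraries 14.95, 41.7 and 16.1 CPM (252, 909 and 251 counts). No 3C library overlapped a DMSO library and 3C replicate 2 stood well above the others of its group. The fold was 4.56, with a log2 fold change of 2.19 (SE 0.41, 95% interval 1.29 to 3.09, adjusted p = 0.0158, edgeR), so Ace was called. Without 3C replicate 2 the log2 fold change was 1.53 (adjusted p = 0.0319). Without DMSO replicate 3 the adjusted p was 0.0909, and with the covariate for reads outside genes, 0.105, at log2 fold changes of 2.21 and 2.30.

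Nr3c2, which passed the filter through 3C alone, was at 0.777, 0.459 and 0.857 CPM with DMSO and 1.25, 1.24 and 1.28 CPM with 3C, without overlap, and its log2 fold change of 0.81 (-0.03 to 1.65, adjusted p = 0.265) did not pass. Agt (-0.13), Agtr1a (-0.25) and Atp6ap2 (-0.04) overlapped between treatments. In all, 1 of 5 passed and was called, against 4.22 and 1.87% of all genes. The AT2 gene Agtr2 stood at 46.2, 61.4 and 64.0 CPM with 3C, overlapping DMSO.

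Other genes of the pathway were counted in the fibroblasts too, beside 4.22% of all genes that passed and 1.87% that were called. None of 12 angiotensin enzymes and receptors and none of 18 V-ATPase subunits passed. Of 16 renin cell genes and regulators 2 rose, Adrb1 (log2 fold change 1.41, adjusted p = 0.00539, edgeR) and the phosphodiesterase Pde3a (0.93, adjusted p = 0.0159), and 1 fell, Ptgs2, cyclooxygenase 2, at -1.64 (adjusted p = 0.0205). Hsd3b6, a steroid dehydrogenase, fell from 17.7 ± 0.412 to 3.94 ± 0.679 CPM (-2.22, adjusted p = 0.000464, SD, n = 3), and Cebpa rose at 0.74 (adjusted p = 0.0315). With the covariate for reads outside genes, Hsd3b6 was the one of these 5 genes that still passed.

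Markers of other cells moved beside Ace in these cultures. The 7 macrophage markers summed to 282 to 367 CPM with DMSO and 114 to 171 CPM with 3C, with 3 of 7 lower and none at 0. The 8 smooth muscle and mural markers summed to 3775 to 4042 CPM and 2772 to 3179 CPM, with 3 of 8 lower. The 6 endothelial markers summed to 12.2 to 15.3 CPM with DMSO and 20.5 to 22.0 CPM with 3C, with 1 of 3 tested higher, Tek, and the defining markers Pecam1 and Cdh5 below 1 CPM on average in both groups. The 6 hepatic stellate cell markers summed to 494 to 650 CPM and 680 to 926 CPM, and 0 of 3 tested passed. The 6 fibroblast markers, at 13190 to 19533 CPM and 13399 to 19201 CPM, overlapped. The part of these cells in the Ace result was not tested.

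ATAC-seq was used to ask whether the start sites of these genes differ in accessibility with age. The measure was the highest fold enrichment of a peak within 1 kb of an annotated start, with 0 for no peak. Of the 8 genes 6 had a peak in every young kidney and every old kidney library, 4 in every young liver and 6 in every old liver, and in each library 60.8 to 66.8% of 21875 genes had one.

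At Agt the kidney peaks were the higher ones, with 9.54, 5.78 and 5.15 in young kidney and 6.55, 4.34 and 7.39 in old kidney, against 0, 2.79 and 2.04 in young liver and 2.63, 2.21 and 2.23 in old liver. The order of the organs in these peaks was thus the reverse of that in RNA. Agtr1a showed the same reversal. Its mean peaks were 4.03 and 4.23 in young and old kidney, against 2.88 and 2.95 in young and old liver. In the liver libraries the median at the 10 hepatocyte markers was also low, at 1.23 to 2.73. At the 6 proximal tubule markers in the kidney libraries it was 3.64 to 5.43. Kidney and liver libraries were not tested against each other here, since enrichment is relative to each library's own background. Old and young kidney overlapped at Agt, where the RNA rose.

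At Ace the values were 10.7, 7.14 and 6.70 in young kidney and 6.02, 3.51 and 5.71 in old kidney, without overlap (means 8.18 and 5.08). All these highest peaks lay at the internal start. The first start had 5.09, 4.39 and 4.11 in young kidney and 2.19, 0 and 2.89 in old kidney, also apart. The peaks covered the printed window of the first start in 3 of 3 young and 2 of 3 old kidneys, and that of the internal start in the same numbers.

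Nr3c2 and Atp6ap2 went the other way. Nr3c2 had 6.71, 6.40 and 5.04 in young and 7.33, 7.80 and 8.69 in old kidney (means 6.05 and 7.94). Atp6ap2 had 6.07, 6.01 and 5.45 in young and 7.79, 8.41 and 10.5 in old kidney (means 5.84 and 8.91). Neither group overlapped for these genes, yet the RNA of both was lower in old kidney by an amount that did not pass.

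In the exact permutation test, two-sided, 3 libraries against 3 cannot give a p below 0.1, and Ace, Nr3c2 and Atp6ap2 each had p = 0.1 (adjusted p = 0.467 over 14 tests). These 3 of 7 genes with peaks compare with 22.9% of all genes whose kidney groups did not overlap. The old kidney libraries also held fewer peaks than the young ones, 108883 to 127836 against 141469 to 151746. The part of this in the 3 differences was not tested. Agt, Agtr1a, Agtr1b and Hsd11b2 overlapped. In liver 0 of 7 stood apart, against 13.1% of all genes. At this number of libraries no difference at a start site passed a test.

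**Figure D4:**
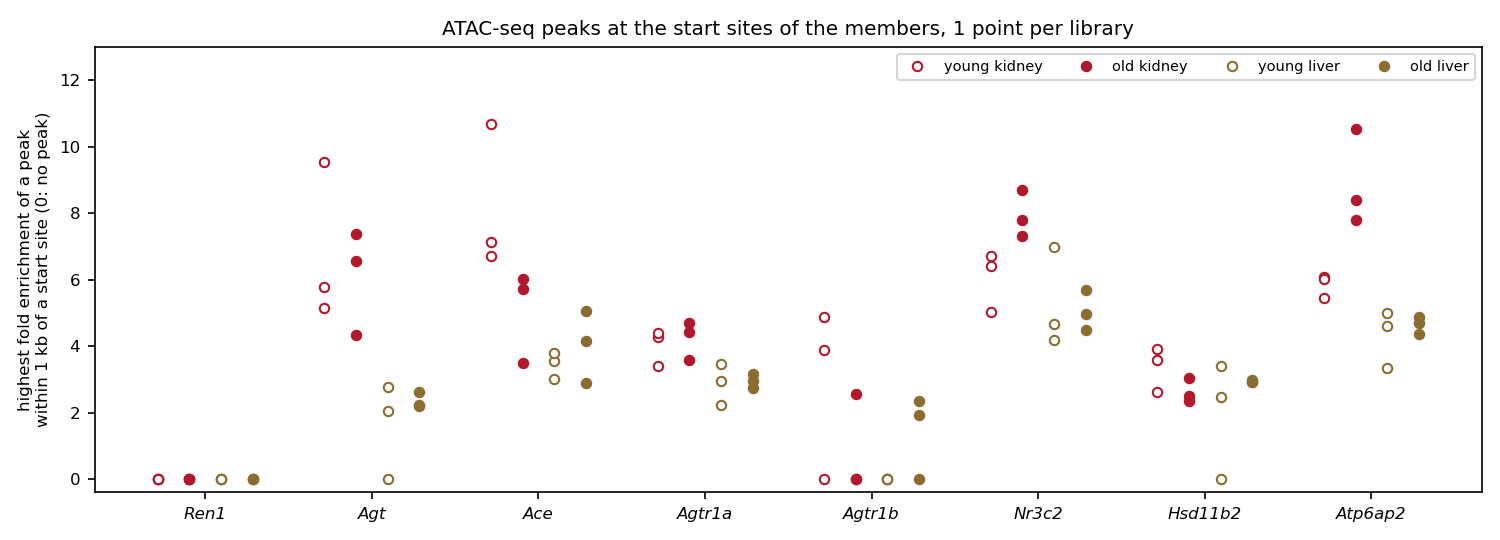
Highest fold enrichment of an ATAC-seq peak within 1 kb of a start site (y axis, 0 for no peak) for the 8 genes, with 1 point per library. Ace is lower and Nr3c2 and Atp6ap2 are higher in old than in young kidney without overlap, and Ren1 is at 0 in all 12 libraries.

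As a description of how the genes vary among like libraries, the genes whose log2 CPM deviations from their group mean were most like those of each member were listed over the 16 kidney libraries, among 13473 genes. These Pearson correlations share library depth and composition and carry no test. Agt was most like Naprt (0.960), C1qtnf12 (0.938) and Tsen34 (0.936), and Ace like Ror2 (0.870), Cptp (0.831) and Cnbd2 (0.823). Agtr1a was most like Sall1 (0.976), Osbpl5 (0.966) and Rnf216 (0.960), and Nr3c2 like Mtx3 (0.985), Znrf3 (0.967) and Abca13 (0.966). Hsd11b2 was nearest to Dbn1 (0.883), Slc12a9 (0.846) and Bak1 (0.844), and Atp6ap2 to Sp4 (0.968), Samd8 (0.960) and Kif3b (0.959). None of the 8 genes was among the 3 nearest of another. In the 16 livers, among 11614 genes, Agt was most like Ppp1r13l (0.821), Agfg2 (0.799) and B3gnt3 (0.786).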

How the data were processed

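RNA-seq was analysed from the deposited counts, whole numbers of reads per gene. Per the labels and methods, the authors ran Trimmomatic 0.39, HISAT2 2.2.1 on mm10 and HTSeq 0.12.4, which ignored strand. For ATAC-seq the authors used Bowtie2 2.3.5.1, discarded duplicates and ran MACS2 on each library alone. The deposited peak lists hold a fold enrichment, a ratio to local background, and −log10 p and −log10 q values. Groups and replicate numbers came from the titles and treatment labels, and every sample had a group.

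Each comparison was fitted over all genes in edgeR 4.0.16 (R 4.3.3) with TMM factors, filterByExpr at a minimum count of 10, the quasi-likelihood F test and Benjamini-Hochberg adjustment, on its own groups, and interactions on 4 groups. Passed means an adjusted p under 0.05, and called adds a fold above 2 or below 0.5. The scripts were tested on simulated counts and peaks. Tallies of reads outside genes, 5.9 to 19.1% of the reads, stayed out of library sizes. CPM was computed from assigned reads, and likeness used log2 CPM with a prior count of 2. Intervals and limits of counts cover counting error only. The 2 series of libraries, untreated and treated, were not tested against each other, since the treated ones list 0 reads aligned to several places.

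Positions came from GENCODE vM21 (GRCm38), and 0 peaks lay beyond a chromosome end. All 7 promoter windows of the members equalled the genome. The 8 genes and the lists were chosen with earlier results of these data known. Named were all 8, the called genes of each list (up to the 4 with the smallest p) and the 3 nearest genes of each member. Some list genes that met this rule are counted but not reported singly here. Alternatives were DESeq2 1.42.0, RLE factors, library totals, a replicate block, no filter, the adjusted p alone, a mean of at least 1 CPM, a covariate for reads outside genes, leaving out each library, and for peaks windows of 500 bp and 5 kb, summits inside the window and a −log10 q of at least 5. Those applied to the list genes were added after seeing the data. RNA libraries of the same group differed by a chi-square of at least 8.12 per degree of freedom, so none of these pairs was counted as 1 sample; pairs across groups and ATAC libraries were not compared in this way.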

Additional observations from a re-analysis of the deposited data

Results flagged for a closer look

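In 7 of 51 combinations of gene and group, 1 library stood far from the other 3 of its group, where chance alone would flag about 5% of such groups. Agt was at 1018 CPM in young liver replicate 4, against 858 to 884 CPM in the others. Agtr1a was at 43.2 CPM in DMSO kidney replicate 4, against 45.4 to 45.7 CPM. Nr3c2 was at 13.4 CPM in 3C liver replicate 1, against 6.52 to 7.10 CPM. Hsd11b2 was at 323 CPM in 3C kidney replicate 1, against 279 to 285 CPM. The other 3 rest on 1 or 2 counts in a library whose group was otherwise at 0, namely Agtr1b at 0.0566 CPM in 3C kidney replicate 3, and Hsd11b2 at 0.0453 CPM in young liver replicate 1 and at 0.117 CPM in 3C liver replicate 3. None of these 7 values belongs to a comparison within a tissue that passed.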

How the results depend on the processing

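Agt in old kidney rose in every fit, at a log2 fold change of 0.83 to 1.14, with an adjusted p of 0.00041 (DESeq2) to 0.0593. By the adjusted p alone 1 member counted as called with age in kidney. DESeq2 in place of edgeR passed 2 members in kidney with age, and passed 1 and called 1 in liver. With the covariate for reads outside genes 0 members passed and 0 were called in fibroblasts. Over all genes DESeq2 passed 2996 in place of 1669 in old kidney, 858 (595 called) in place of 309 (267 called) in old liver, 214 in place of 0 in 3C kidney, 6 in place of 0 in 3C liver and 1070 in place of 567 in fibroblasts. The covariate passed 119 in fibroblasts (109 called in place of 251) and, between kidney and liver, 2694 in place of 9187 in young mice and 4579 in place of 10765 in DMSO mice, where its values do not overlap between organs. No filter passed 910 in fibroblasts, library totals called 9042 in place of 5987 in young mice and passed 172 in place of 258 for the age interaction.

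Same-numbered libraries had correlated deviations of -0.25 to 0.21 in kidney with age. Between kidney and liver all 4 pairs were positive, at 0.097 to 0.43 in young mice and 0.011 to 0.11 in DMSO mice, but in no comparison did every pair exceed 0.1, so the numbers were not taken as pairs. A replicate block left every call of the 8 genes as it was (Agt in old kidney 0.96, adjusted p = 0.028), and passed 1057 genes in place of 1669 in old kidney, 139 in place of 309 in old liver 138 in place of 258 for the interaction and 10003 in place of 9187 between organs in young mice.

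Of 685 values under an alternative, libraries left out aside, 8 changed direction, and neither value of any of them passed. These were Nr3c2 in old liver (-0.0013 with DESeq2, -0.053 with the replicate block), Ace (0.044) and Nr3c2 (-0.0012) in 3C kidney and Agt in fibroblasts (0.090) with the covariate, Agtr1a in 3C liver (-0.011) and Atp6ap2 in fibroblasts (0.0041) with library totals, and the peaks of Agtr1a in kidney (-0.454 within 5 kb). Members with a peak in every young liver library numbered 7 within 5 kb and 1 at a −log10 q of at least 5, and in old liver 2 at that q. The cause of these changes was not tested. With each library left out in turn, members passed ranged from 0 to 2 and called from 0 to 1 in old kidney, both from 0 to 1 in fibroblasts, passed from 5 to 6 between organs in young mice and called from 4 to 5 in young and in DMSO mice, and passed from 0 to 1 in the age interaction. Log2 fold changes ranged from -0.23 to 0.0062 for Agtr1a in old kidney, from -0.0083 to 0.22 for Agt and -0.19 to 0.27 for Nr3c2 in old liver, from -0.13 to 0.042 for Ace and -0.0052 to 0.090 for Hsd11b2 in 3C kidney, from -0.079 to 0.093 for Agtr1a and -0.12 to 0.24 for Nr3c2 in 3C liver, and from -0.38 to 0.083 for Agt and -0.15 to 0.041 for Atp6ap2 in fibroblasts. The age interaction of Agtr1a ranged from -0.19 to 0.12, and the 3C interactions of Agt from -0.13 to 0.052, of Ace from -0.50 to 0.017, of Nr3c2 from -0.15 to 0.19 and of Atp6ap2 from -0.026 to 0.13. The Agtr1a share in old kidney differed by -0.0684 to 0.117 percentage points, and kidney peaks with age by -1.57 to 0.63 for Agt and -0.103 to 0.533 for Agtr1a. Hsd11b2, at 0 to 4 counts in liver libraries, was left out of the interactions. Low counts limit Agtr1b in all libraries, Hsd11b2 and Ace in liver and Nr3c2 in fibroblasts.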
